A study of Mus musculus with 6 samples.

Results

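The casein gene cluster of the mouse lies on chromosome 5 and holds the 5 casein genes Csn1s1, Csn2, Csn1s2a, Csn1s2b and Csn3. Its values were examined in the mammary gland of wildtype mice and of mice that express FOXC1 under the mouse mammary tumor virus (MMTV) promoter. The cluster was taken as the 5 caseins and 2 neighbouring genes, Odam and Sult1d1, found by gene name in a table of 21950 genes, so that 7 of the 21950 genes were examined. All samples came from FVB/NJ mice at postnatal week 11 and lactation day 2, with 3 labelled samples of each genotype, and no other allele or treatment is labelled. The transgene is a Myc-tagged human FOXC1 cDNA, detected by the study in luminal epithelial cells, and the study kept the 2 lines with the highest expression. The sources used here do not say which line was sequenced or whether the samples came from separate animals. RNA was taken from sections of mammary tissue on slides, although the labels call the source epithelial cells. The study removed lymph nodes before digestion from number 4 glands collected for RNA analysis and progenitor assays. It does not say whether the sequenced slides were free of lymph nodes.

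Caseins are the main proteins of milk. The alpha-s1, beta, alpha-s2-like and kappa-caseins are phosphorylated in the Golgi apparatus of alveolar cells, bind calcium and assemble into micelles, which kappa-casein keeps in solution. Their genes are transcribed in alveolar luminal cells under prolactin, which acts through Stat5, together with glucocorticoids and with the factors Elf5, C/EBP-beta and nuclear factor I. Odam encodes a protein of the enamel organ and Sult1d1 encodes a cytosolic sulfotransferase.

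Sequence upstream of 3 caseins is shown because Stat5 binds next to casein genes and because these genes were lower together. The stretches are from RefSeq on build GRCm38.p6 and run 5′ to 3′ on the strand of the gene. Capitals mark matches to the Stat5 motif TTCNNNGAA, which reads the same on both strands, and to GTAAA, the core of the motif that forkhead proteins such as FOXC1 bind, searched on both strands (TTTAC on the other strand). Positions are counted from the RefSeq transcript start as 0. The Csn1s1 stretch (chr5:87666048-87666207, plus strand) covers -160 to -1, the Csn2 stretch (chr5:87699426-87699585, minus strand) covers -160 to -1, and the Csn1s2a stretch (chr5:87774319-87774478, plus strand) covers -131 to 28.
Csn1s1: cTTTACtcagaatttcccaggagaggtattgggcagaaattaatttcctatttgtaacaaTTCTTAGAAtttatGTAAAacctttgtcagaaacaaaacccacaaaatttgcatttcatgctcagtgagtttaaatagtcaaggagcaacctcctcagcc
Csn2: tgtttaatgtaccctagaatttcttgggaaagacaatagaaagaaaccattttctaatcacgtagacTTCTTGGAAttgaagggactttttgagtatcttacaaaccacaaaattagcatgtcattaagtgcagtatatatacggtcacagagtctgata
Csn1s2a: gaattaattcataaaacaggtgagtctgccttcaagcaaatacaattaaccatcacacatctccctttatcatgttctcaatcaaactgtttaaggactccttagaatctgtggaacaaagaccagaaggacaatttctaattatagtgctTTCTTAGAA

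Each of the 3 stretches held 1 Stat5 motif, at -100 to -92 in Csn1s1, at -93 to -85 in Csn2 and at 20 to 28 in Csn1s2a. The Csn1s2a stretch was set to end on its match, so that it held 1 was fixed in advance. The windows of 300 bases around the RefSeq starts of these 3 genes also held 1 each. The RefSeq start of Csn1s2a lies upstream of the start of its first GENCODE transcript, and counted from the latter the match was at -97 to -89. Counted in the same way, the match was at -125 to -117 in Csn1s1 and at -93 to -85 in Csn2. The windows of 300 bases around the RefSeq starts of Odam and Sult1d1 held no Stat5 motif, and Csn1s2b and Csn3 were not matched in the promoter table. Over 32851 such windows of all genes, 8.3% held the Stat5 motif and 31.5% held the forkhead core. The latter was found in the windows of Csn1s1 (2 matches, at -159 and -86) and Sult1d1 (1 match, at 32), and in none of those of Csn2, Csn1s2a and Odam. AGGAAG (the ETS core), TTGCNNAA (C/EBP) and TATAAA were searched as well. The ETS core and the C/EBP motif were in none of the windows of Csn1s1, Csn2, Csn1s2a, Odam and Sult1d1. Over all windows they were held by 35.4% and 10.8%. TATAAA was found in the window of Sult1d1 alone, beside 13.6% of all windows. A match is a stretch of letters and was not tested as a binding site.

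The deposited values are RPKM, that is reads divided by exonic length and by library size. The steps between the values gave back whole reads for all 18308 genes above 0, and the depth was 3492861 to 3496335 reads per wildtype column and 11770867 to 11775866 reads per transgenic column. Within a genotype the columns agreed nearly to sampling noise (chi-square per degree of freedom 1.02 over 5835 genes in wildtype and 1.05 over 7490 genes in transgenic mice), so each genotype was counted as 1 library (n = 1) and no p value is given. The comparison therefore has no replicate check, and all intervals below are at 95% and cover counting error only. A gene was called by size, at an absolute log2 change of RPKM + 1 over 2, where the mean of one or the other genotype was 2 RPKM or more. The median change of the 13118 genes past this filter was 1.06, and median-of-ratios size factors, which lower the transgenic values 2.30-fold, brought it to 0.06. Relative changes are those computed with these factors. Foxc1 had 98 wildtype and 1267 transgenic reads, or 2.37 and 9.07 RPKM. Its log2 change of 1.58 was within the size threshold. The transgene is of human sequence and the reads were aligned to the mouse genome, so these reads are not a measure of the transgene, and how many of them came from it was not tested.

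All 5 caseins were lower in the transgenic library, by 105-fold for Csn3 to 5764-fold for Csn1s2b. They were the 5 genes of the cluster that passed the filter, and each was called lower, whereas 161 of the 13118 genes (1.23%) were called lower and 2106 (16.1%) higher. After median-of-ratios scaling the 5 remained lower, beside 391 genes lower (2.98%) and 408 higher (3.11%). They were also lower with a trimmed mean of ratios (3.03% of genes lower), with library size without casein reads (2.03%), relative to summed luminal markers (7.97%) and with median-of-ratios factors over the genes past the filter (3.06%). Every one of these scalings lowers the transgenic values, so none could have undone the calls. Ranked from the most negative change over 13118 genes, Csn1s2b was 1, Csn1s2a 3, Csn1s1 4, Csn2 6 and Csn3 8. The wildtype columns lay above all transgenic columns for 7 of 7 cluster genes and for 8.96% of the 18308 genes with reads, although columns of 1 library are not replicates. For Odam the lowest wildtype column and the highest transgenic column held 1 read each and were set apart by depth alone. In these tissue samples, fewer alveolar cells and less casein RNA per cell cannot be told apart.

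**Figure D1:**
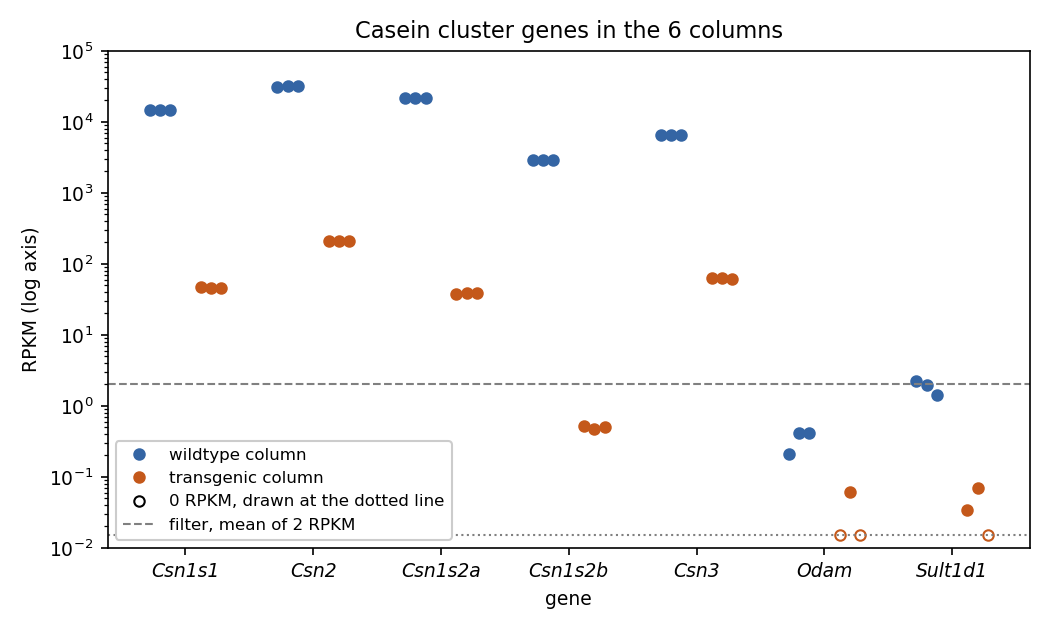
RPKM on a log axis of the 7 cluster genes in the 3 wildtype columns (blue) and the 3 transgenic columns (orange), with 0 drawn as an open circle on the dotted line. Wildtype columns of the 5 caseins lie between 2859 and 31481 RPKM, and the transgenic columns lie between 0.479 and 212 RPKM.

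Csn2, which encodes beta-casein, had 31327, 31481 and 31477 RPKM in the wildtype columns and 212, 211 and 210 RPKM in the transgenic columns. The columns of a genotype were alike and the 2 sets were far apart. The log2 change was -7.21 (relative change -8.41), and the RPKM was 149-fold lower (148 to 151). Csn2 was the gene of rank 2 by RPKM in the wildtype library and fell to rank 106 in the transgenic library. It held 16.9% of the wildtype reads over genes (1772159 reads) and 0.114% of the transgenic reads (40066 reads). The gene (ENSMUSG00000063157) spans 87692624 to 87699630 on the minus strand, and like the other 6 it shares 0% of its exonic bases with another annotated gene.

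Csn1s1, the alpha-s1-casein gene, had 14707, 14640 and 14641 RPKM in the wildtype columns and 47.5, 45.1 and 45.9 RPKM in the transgenic columns. Again no column of one genotype came near the other. The log2 change was -8.28 (relative change -9.44) and the level was 318-fold lower (311 to 324), with 912090 and 9678 reads. The gene (ENSMUSG00000070702, 87666208 to 87682578, plus strand) fell from rank 5 to rank 748.

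Csn1s2a and Csn1s2b encode the 2 alpha-s2-like caseins of the mouse. Csn1s2a (ENSMUSG00000061937, 87774567 to 87788797, plus strand) had 21774, 21710 and 21529 RPKM in the wildtype columns and 38.0, 38.3 and 38.6 RPKM in the transgenic columns. These columns did not overlap, and the level was 566-fold lower (550 to 583), a log2 change of -9.11 (relative change -10.26). Csn1s2a fell from rank 4 to rank 1005.

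Csn1s2b (ENSMUSG00000061388, 87808082 to 87824426, plus strand) had 2880, 2859 and 2882 RPKM in the wildtype columns and 0.518, 0.479 and 0.499 RPKM in the transgenic columns. It was the lowest casein in both libraries, and in the transgenic library it was the sole casein under 2 RPKM, with 26, 24 and 25 reads. Its log2 change was -10.91 (relative change -11.21). The pseudocount of 1 exceeds its transgenic level, and with no pseudocount the log2 ratio was -12.49 (-12.84 to -12.17), or 5764-fold lower (4598 to 7328). Csn1s2b stood at rank 13 in wildtype and at rank 15203 in transgenic mice.

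Csn3, the kappa-casein gene (ENSMUSG00000001622, 87925579 to 87932665, plus strand), had 6553, 6538 and 6514 RPKM in the wildtype columns and 62.1, 63.7 and 61.3 RPKM in the transgenic columns. Its wildtype level was below those of Csn1s1, Csn2 and Csn1s2a, and its transgenic level was above those of Csn1s1 and Csn1s2a. The level was 105-fold lower (103 to 107) at a log2 change of -6.69 (relative change -7.86), the smallest fall among the caseins, and the rank went from 6 to 465.

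The 2 neighbours were close to the detection limit and under the filter. Odam (ENSMUSG00000009580, 87885029 to 87894174, plus strand) had 1, 2 and 2 wildtype reads, by column, against 0, 1 and 0 transgenic reads. The ratio was 16.8-fold lower with a counting interval of 1.89 to 797. Sult1d1 (ENSMUSG00000029273, 87554645 to 87569027, minus strand) had 2.21, 1.98 and 1.40 RPKM in wildtype (19, 17 and 12 reads) and 0.0345, 0.0691 and 0 RPKM in transgenic mice (1, 2 and 0 reads). It was 53.9-fold lower (17.4 to 271) from 48 and 3 reads, and its log2 change of -1.47 carries the pseudocount, being -2.14 and -3.87 with pseudocounts of 0.5 and 0.1. Both ratios were computed with no pseudocount, and neither gene was counted as called.

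The 5 caseins together took 37.0% of the reads over genes in the wildtype library and 0.181% in the transgenic library (0.179% to 0.182%), a share 205-fold lower. The columns ranged from 36.96% to 37.02% in wildtype and from 0.180% to 0.182% in transgenic mice. Taking the casein reads out of both library sizes lowers the transgenic values 1.58-fold against the wildtype values, and with this scaling the median log2 change of the 5 caseins went from -8.28 to -8.93.

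The caseins did not fall in proportion. Of all casein reads, Csn2 took 45.7% in wildtype and 63.0% in transgenic mice, and Csn3 took 7.34% and 14.4%. The other 3 lost share, Csn1s1 from 23.5% to 15.2%, Csn1s2a from 20.1% to 7.28% and Csn1s2b from 3.31% to 0.118%. The same directions held for shares of summed RPKM, at 40.7% and 58.9% for Csn2, 8.47% and 17.4% for Csn3 and 3.72% and 0.139% for Csn1s2b.

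**Figure D2:**
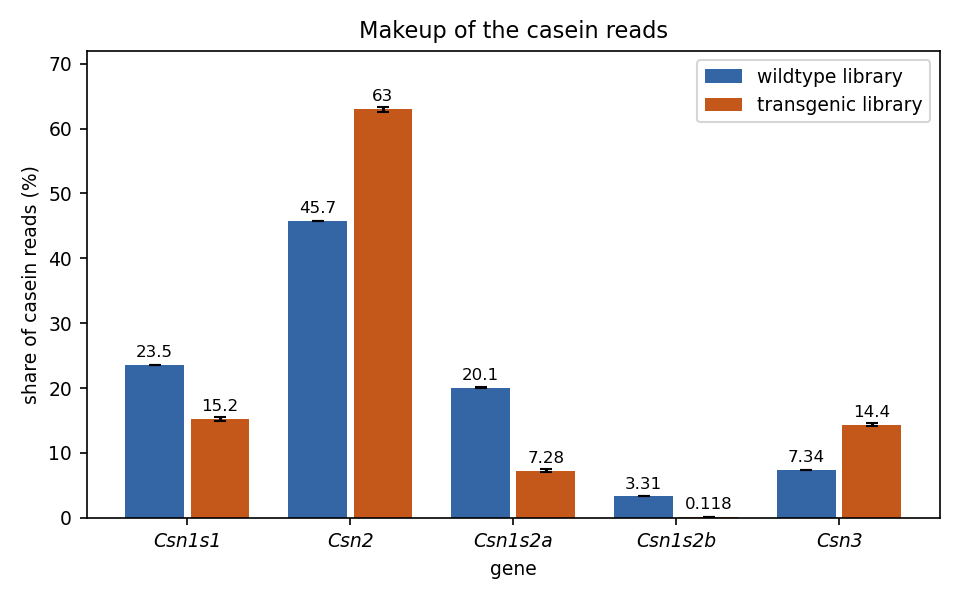
Share of each casein among the reads of the 5 caseins, in percent, for the wildtype library (blue) and the transgenic library (orange), with Wilson intervals for counting error. Csn2 and Csn3 hold a larger share in the transgenic library, and Csn1s2b goes from 3.31% to 0.118%.

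Differences between the falls of 2 caseins do not depend on the library scaling when no pseudocount is used, since a factor common to all genes cancels. The counting intervals of all 10 pairs excluded 0. Csn2 and Csn3 were the closest pair, Csn3 having fallen 1.42-fold less than Csn2 (log2 ratio of Csn2 minus that of Csn3, -0.51). Csn1s2a fell 1.78-fold further than Csn1s1 and 3.80-fold further than Csn2. Csn1s2b fell 10.2-fold further than Csn1s2a, its neighbour at 19.3 kb, and 55.0-fold further than Csn3. These intervals compare the libraries and say nothing of the spread between animals.

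By RPKM the wildtype order was Csn2, Csn1s2a, Csn1s1, Csn3 and Csn1s2b, and the transgenic order was Csn2, Csn3, Csn1s1, Csn1s2a and Csn1s2b. Csn1s2a dropped below Csn3 and Csn1s1, and stood at 3.32 times the level of Csn3 in wildtype and at 0.614 times in transgenic mice. RPKM divides by the exonic bases of all transcripts of a gene, for example 5934 bases for Csn1s1 where its first annotated transcript has 1411. Divided instead by the length of the first annotated transcript, both orders were the same. Sult1d1 and Odam were below the caseins in both libraries, and in the transgenic library their 3 and 1 reads do not set them apart.

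Of 50-base windows along the annotated transcripts of each member, 0.984% in Csn3 and 0.0676% in Csn2 also occurred in another gene, and 0 did in the other 5. Within wildtype mice the columns differed by more than sampling noise for Csn1s2a (chi-square per degree of freedom 8.94) and Csn2 (4.59), at coefficients of variation of 0.587% and 0.279%.

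The 7 genes span 378 kb, and Csn1s1 to Csn3 span 266 kb. Within 1 Mb of the cluster the table held 35 other genes, of which 20 had no read, 7 had reads under the filter and 8 passed the filter. One of these 8, Prr27, was called lower and 0 were called higher, with library size and on the relative scale. Over all 13118 genes, 1.23% were called lower and 16.1% higher with library size, and 2.98% and 3.11% on the relative scale. Prr27 passed the filter through the wildtype library alone. With a filter of 5 RPKM Prr27 was not called, and relative to summed luminal markers Mob1b was called lower as well. Prr27, a gene for a proline-rich protein, lies between Csn1s2b and Odam and is the sole gene of the table between Csn1s1 and Csn3 that is not a member. It had 5.57, 3.64 and 4.07 RPKM (62 reads) in wildtype and 0 reads in all transgenic columns, at least 69.6-fold lower against a floor of 3 reads over the transgenic library, and another gene covers 7.78% of its exonic bases.

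The other 7 started at least 828 kb from the Csn2 start and had log2 changes of -0.64 to 1.39. They were Ythdc1 (0.53), Jchain (1.06), Utp3 (1.39), Rufy3 (1.39), Grsf1 (0.36), Mob1b (-0.64) and Dck (0.07). Their relative changes were between -1.61 for Mob1b and 0.39 for Rufy3. Nearer than that, no gene of the table other than the caseins and Prr27 passed the filter, so the edges of the region that was lower could not be placed from these data.

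**Figure D3:**
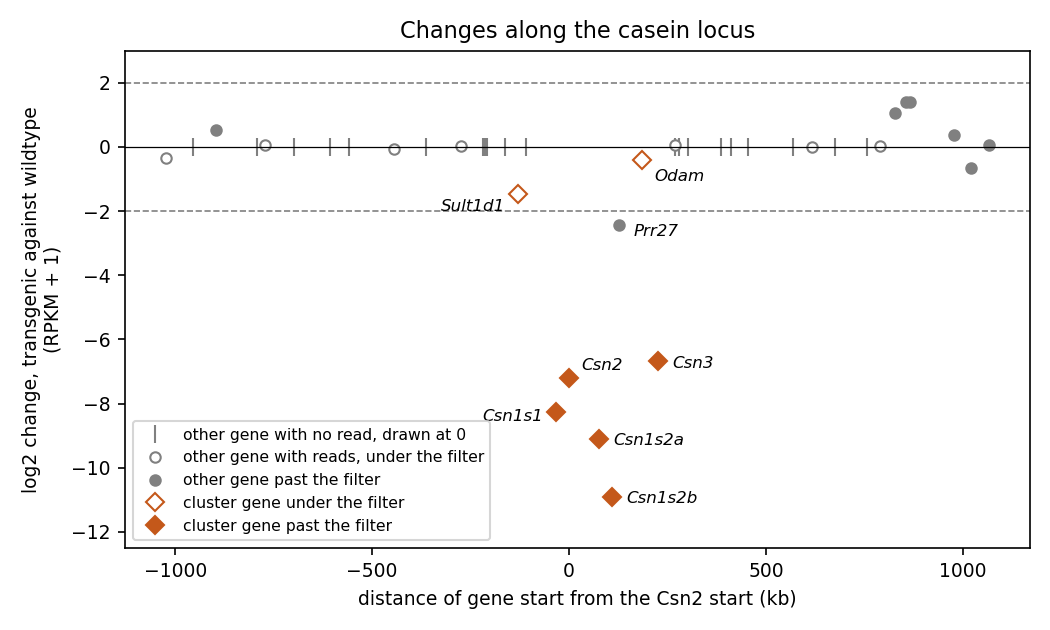
Log2 change of RPKM + 1 in transgenic against wildtype mice for the 42 genes within 1 Mb of the cluster, by the distance of the gene start from the Csn2 start in kb, with dashed lines at the size threshold. The 5 caseins (filled diamonds) lie between -6.69 and -10.91, Prr27 at -2.44, and the other genes past the filter (filled circles) between -0.64 and 1.39.

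Among 16 genes that act on casein transcription, all past the filter, 1 was called lower and 2 higher, beside 1.23% lower and 16.1% higher over all 13118 genes. The share called higher, 2 of 16, was near that of all genes. The median change was 0.81 beside 1.06 over all genes. Elf5, an ETS factor of alveolar cells, was the one called lower, with 156, 154 and 158 RPKM in the wildtype columns and 19.4, 19.4 and 20.1 RPKM in the transgenic columns. Its log2 change was -2.93 (relative change -4.04), a smaller change than that of any casein. Socs1 and Socs3, which inhibit cytokine receptor signalling, were called higher at 2.70 and 3.03, and neither was past the threshold on the relative scale (1.70 and 1.97). In the wildtype library they had 0.313 RPKM (4 reads) and 0.528 RPKM (16 reads), under the pseudocount of 1. Their changes therefore carry the pseudocount on both scales. Both genes passed the filter through the transgenic library alone (7.52 and 11.5 RPKM).

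Cish, a Stat5 target and feedback inhibitor, had a log2 change of -1.78 and was called lower on the relative scale alone (-2.77). The other 12 were within the threshold on both scales. Stat5a had a change of -0.70 (relative change -1.79), the prolactin receptor gene Prlr -0.23 (-1.30) and the glucocorticoid receptor gene Nr3c1 -0.17 (-1.30). Cebpb, Gata3, Nfib, Stat5b and Yy1 had changes above 0 with library size and below 0 on the relative scale, so no direction is given for them. The relative median of the list was -0.33, beside 0.06 over all genes.

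Of 8 genes listed under casein phosphorylation and calcium supply, all past the filter, 4 were called lower and 1 higher, with a median change of -1.83 beside 1.06 over all genes. The list also held the zinc transporter gene Slc39a1, which was within the threshold on both scales (0.83 and -0.33). Over all 13118 genes, 1.23% were called lower and 16.1% higher. On the relative scale 5 of the 8 were called lower and 0 higher, beside 2.98% and 3.11% of all genes. Fam20c, the Golgi kinase that phosphorylates caseins, had 35.2, 36.9 and 38.5 RPKM in the wildtype columns and 3.09, 3.08 and 2.91 RPKM in the transgenic columns, a log2 change of -3.23. Fam20a, its pseudokinase partner, had a change of -2.53. The wildtype columns of both genes were all above the transgenic columns, as they were for 8.96% of the 18308 genes with reads. Columns of 1 library are not replicates, so this adds nothing to the size of the change.

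Atp2b2, which encodes a calcium pump of the apical membrane, had 82.3, 85.2 and 85.6 RPKM in the wildtype columns and 0.202, 0.101 and 0.189 RPKM in the transgenic columns. Its log2 change was -6.20 (relative change -6.32), which carries the pseudocount. With no pseudocount, computed after its values were seen, it was 515-fold lower (409 to 657) from 11151 and 73 reads. Atp2c2, a calcium and manganese pump of the secretory pathway, had a change of -3.24. Atp2c1, another such pump, had a change of -1.13 and was called lower on the relative scale (-2.16). Nucb1, which encodes a calcium-binding Golgi protein, was called higher at 2.90 and was within the threshold on the relative scale (1.75).

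Caseins belong to the secretory calcium-binding phosphoproteins, a family otherwise known for enamel, dentin and bone. Of 14 relatives listed, 11 were in the table and 3 passed the filter, of which 1 was called lower and 1 higher (1.23% and 16.1% over all genes). Spp1, which encodes osteopontin, a phosphoprotein also found in milk, had 849 and 57.7 RPKM and a log2 change of -3.86 (relative change -5.03), and another gene covers 18.8% of its exonic bases. Sparcl1 had a change of 2.04, which was 0.87 on the relative scale. Of 11 sulfotransferase genes other than Sult1d1, 2 passed the filter and 0 were called, and Sult1b1 and Sult1e1, which flank Sult1d1, had no read.

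The genes most like the caseins were taken as the 5 nearest to the median point of the 5 caseins by distance on log2(RPKM + 1) of both libraries, that is over 2 values. They were Wap, Lalba, Trf, Gm20425 and Lao1. Wap, which encodes the whey acidic protein, was nearest at a distance of 1.33, with 35927 and 58.2 RPKM and a log2 change of -9.24. Csn1s2b, at 5.50, was farther from that point than any of these 5, the farthest of which was Lao1 at 3.86. Trf and Gm20425 share most of their exonic bases with another gene (63.5% and 98.9%).

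**Figure D4:**
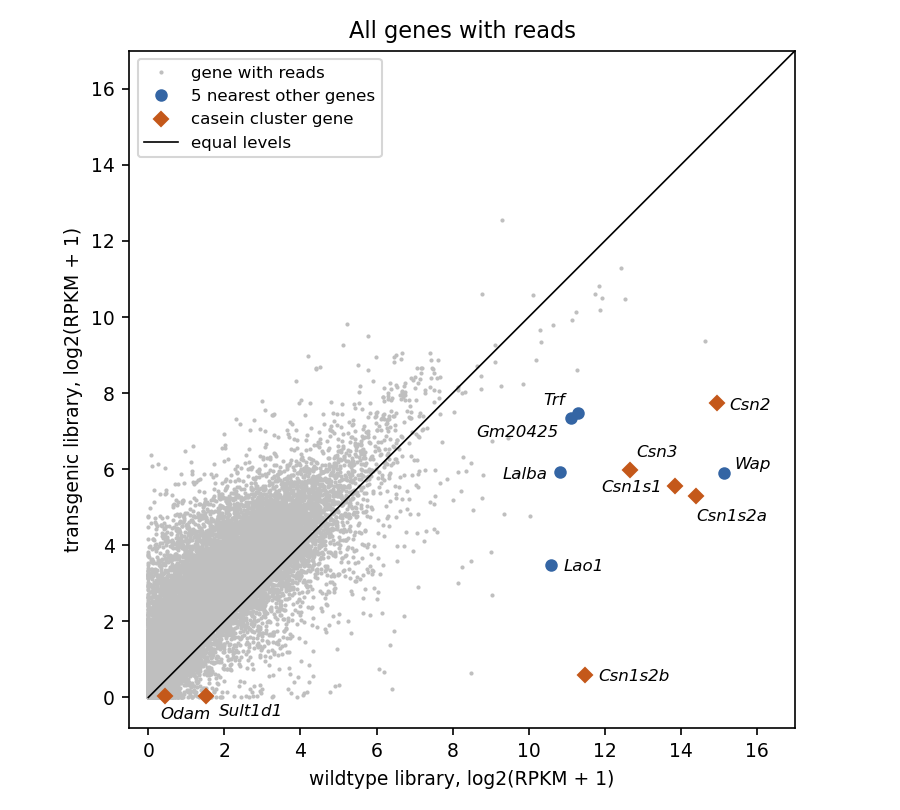
Log2(RPKM + 1) in the wildtype library (x axis) and in the transgenic library (y axis) for each gene with reads (grey), the 7 cluster genes (orange diamonds) and the 5 nearest other genes (blue), with a line at equal levels. The caseins and Wap (35927 and 58.2 RPKM) lie far below the line, and Csn1s2b lies apart at 2873 and 0.499 RPKM.

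Markers of the luminal epithelium were detected in both libraries and did not fall with the caseins. Of 10 luminal markers 0 were called lower and 6 higher, beside 1.23% and 16.1% of all genes. On the relative scale 0 were lower and 1 was higher, beside 2.98% and 3.11%. Of the 6, Krt7, Elf3 and Cldn4 passed the filter through the transgenic library alone, so they could only be called higher. Their wildtype levels were 1.59, 0.602 and 0.105 RPKM, and Cldn4 was the 1 called higher on the relative scale. Their summed level was 99.1 to 106 RPKM over the wildtype columns and 475 to 477 RPKM over the transgenic columns. Each marker had reads in both libraries, and Cldn4 was at 0 in 2 of the 3 wildtype columns (2 wildtype and 2194 transgenic reads). Divided by this sum, Csn2 was 698-fold lower, Csn1s1 1487-fold, Csn1s2a 2650-fold, Csn1s2b 26992-fold and Csn3 491-fold. The sum itself moved with the genotype, with Krt8 at 13.9 and 109 RPKM and Krt18 at 18.5 and 134 RPKM in wildtype and transgenic mice. By staining, the study found the Krt8 protein much reduced in lactating wildtype mice and strong in transgenic mice. These folds are therefore not a measure per luminal cell.

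Markers of other cells moved with the genotype as well, and the counts of markers called higher stand beside 16.1% of all genes with library size and 3.11% on the relative scale. The summed level of 8 basal markers was 146 to 151 RPKM in wildtype and 463 to 471 RPKM in transgenic columns, with 1 called higher. All 8 adipocyte markers were called higher, with sums of 107 to 116 and 2060 to 2078 RPKM. Of 6 markers each, 5 were called higher for B cells (4.80 to 5.28 and 162 to 164 RPKM), 5 for T cells (8.91 to 10.6 and 208 to 225 RPKM) and 5 for macrophages (20.3 to 24.8 and 135 to 137 RPKM). On the relative scale 7 adipocyte, 5 B cell, 5 T cell, 1 macrophage and 0 basal markers were called higher. Every B cell and T cell marker called higher passed the filter through the transgenic library alone, as did some macrophage markers. Such markers could not have been called lower. Each of these markers had reads in both libraries, 4 of the 6 B cell markers had 1 to 3 wildtype reads in all, and none was called lower with either of these 2 scalings. The part of these cells in the lower casein values was not tested.

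**Figure D5:**
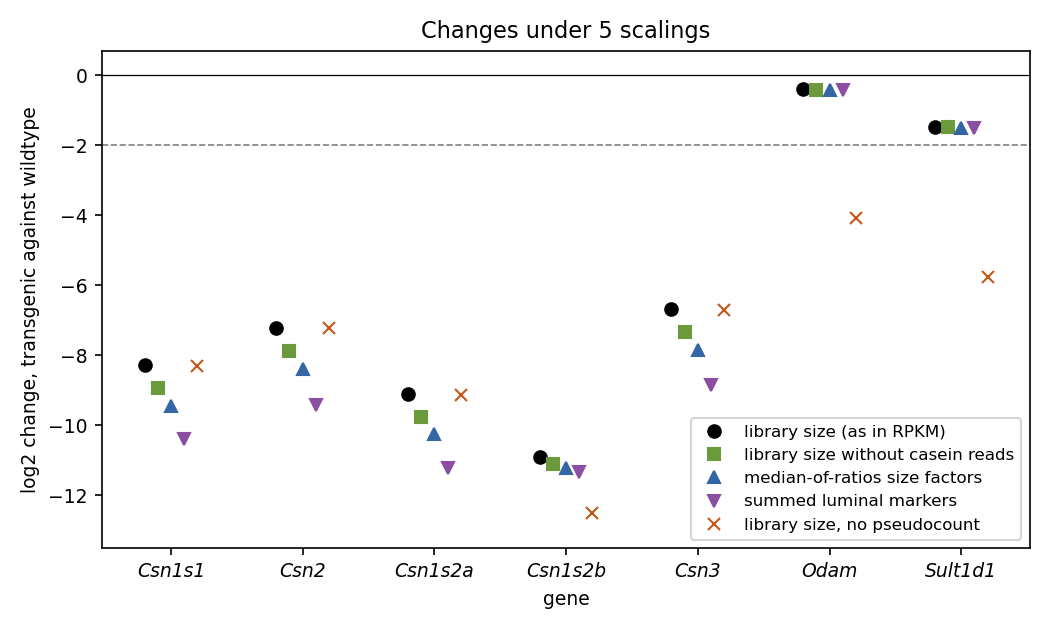
Log2 change of the 7 cluster genes in transgenic against wildtype mice under 5 scalings, each marked by its own symbol, with a dashed line at the size threshold. The 5 caseins lie below the line under each scaling drawn, and Odam and Sult1d1 lie above it under the 4 scalings with a pseudocount of 1 and below it with no pseudocount, from 1 and 3 transgenic reads.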

How the data were processed

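The authors depleted ribosomal RNA from the RNA of mammary tissue slides and sequenced single 50-base reads. Alignment was with TopHat2 (2.0.7) against GRCm38, and SAMMate gave RPKM over Ensembl genes. The deposited RPKM values are divided by exonic length and library size, and no composition factor was applied. The authors also deposited mean RPKM columns, a log2 fold change and a fold change (a ratio), which hold their own comparison and were not used. The samples were grouped by their labels.

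Reads were recovered from the steps between RPKM values as whole numbers within 1e-05 reads, at lengths of up to 120000 bases, with totals over genes of 99.7% to 99.9% of the depth. On simulated data at these depths the depths of all 6 columns were recovered, and 99.6% of 16192 genes had their reads recovered. The rule of size was used in place of a model over columns, since columns within a genotype behaved like 1 library. This comparison of columns over genes used those with at least 15 reads that gave whole reads at the annotated exonic length. That length held for 8699 genes. The 9609 genes above 0 at another length, Csn1s1, Csn2 and Csn1s2a among them, were left out of it. Ratios carry Clopper-Pearson intervals and shares carry Wilson intervals at 95%. The median-of-ratios factor used the 16096 genes with reads in both genotypes, and the trimmed mean left out 30% at each end. Coordinates are from GENCODE M21 on GRCm38, and promoter windows are from RefSeq. Python 3.11.15, numpy 2.4.6, pandas and scipy were used.

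The text names the 7 members, the genes within 1 Mb that passed the filter, the 5 nearest genes, and up to 4 members of each list in each direction past the threshold. Cish, Stat5a, Prlr, Nr3c1, Atp2c1, Sult1b1, Sult1e1, Cldn4, Krt7, Elf3 and the genes whose sign differed between scalings were named outside this rule, after their values were seen. The members and lists were chosen with earlier results of these data known.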

Additional observations from a re-analysis of the deposited data

How the results depend on the processing

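The 5 caseins were called lower under every alternative run, namely the scalings, pseudocounts, filters, a threshold of 1 and each column left out (5 of 5 each time). All 98 log2 changes of single members stayed below 0. These outcomes could hardly have differed and are not a check of the result. Each alternative scaling lowers the transgenic values (factors of 0.214 to 0.631), and smaller pseudocounts or a threshold of 1 favour a lower call. The wildtype caseins pass every filter tried, and the columns left out are near-identical columns of 1 library. With pooled shares counted per length, as summed RPKM, the caseins took 24.8% in wildtype and 0.140% in transgenic mice. The median log2 change of the 5 caseins, -8.28, became -9.44 with median-of-ratios size factors, -9.46 with a trimmed mean of ratios, -8.93 with library size without casein reads and -10.40 relative to summed luminal markers. The range of change over the 5, 4.22, became 3.35, 3.33, 3.76 and 2.51 in that order, and 5.52 and 4.79 with pseudocounts of 0.1 and 0.5. These scalings move the range because the pseudocount of 1 is added after scaling and exceeds the transgenic level of Csn1s2b. Of 2 alternatives chosen after seeing the data, no pseudocount gave a median of -8.31 and a range of 5.78, and a median-of-ratios factor over the 12677 genes past the filter with reads in all columns gave -9.47 and 3.32. That factor was 2.35-fold in place of 2.30-fold. Leaving out 1 column gave medians of -8.30 to -8.26 and ranges of 4.19 to 4.23.

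No paired analysis was possible because the columns of a genotype behaved as 1 library and the comparison comes from no test. The main limit is n = 1 for each genotype, so that no spread between animals stands behind any change. The transgenic library was 3.37 times as deep as the wildtype library. Depth limits Odam and Sult1d1, whose ratios rest on 1 and 3 transgenic reads, and Csn1s2b, at 75 reads.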
